A study of Rattus norvegicus with 6 samples.

Results

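Annexins are cytosolic proteins that bind phospholipids of the inner membrane leaflet when calcium rises. The genes described here are the 8 annexins *Anxa1*, *Anxa2*, *Anxa3*, *Anxa4*, *Anxa5*, *Anxa6*, *Anxa7* and *Anxa11*, taken by symbol from a table of 19382 rat genes. All 8 had a row and enough reads to be tested, among 14959 genes tested in all. Their transcripts were measured by RNA sequencing of brain tissue from SD rats in 6 libraries. The hypoxia-ischemia (HI) group, 3 libraries, came from rats that underwent 2.5 h of hypoxia-ischemia at 7 days of age, and the control group, 3 libraries, is labelled only as having had a control treatment. The brain region, the interval between injury and sampling and the age of the controls are not stated in the labels. Nor do these say that each library came from its own animal, and the spread behind each p-value is that among these libraries, which may be technical.

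Every annexin has a conserved core of repeats that holds the calcium sites, and a variable amino-terminal stretch where partner proteins bind. The family takes part in sealing torn plasma membrane, in vesicle traffic and in masking or marking exposed phosphatidylserine. Anxa1 is known as an anti-inflammatory ligand of formyl peptide receptors, Anxa2 as the partner of S100a10 in a complex that promotes plasmin formation at cell surfaces, and Anxa5 as the protein used to stain dying cells. In the brain, annexins are found in microglia, reactive astrocytes, vessels, ependyma and the membranes around the brain, and some also in neurons.

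Libraries held 13922663 to 14927469 estimated reads, and the smallest value of any of the 8 genes was 36 reads (*Anxa1* in control 3). Levels are given as CPM, counts per 1e6 reads after scaling by library size and TMM factor. Neuron, astrocyte and oligodendrocyte markers were present in all 6 libraries (summed levels of at least 1303, 888 and 341 CPM), as brain tissue would have. Libraries differed in tissue content. Choroid plexus markers were abundant in control 2, HI 2 and HI 3, summed markers of dorsal telencephalon were at 89.4 CPM in control 3 against 704 and 801 CPM in controls 1 and 2, and reads of the Y-linked genes *Kdm5d* and *Eif2s3y* were found only in control 3, HI 2 and HI 3.

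Of the 8 annexins 2 rose in HI, *Anxa1* and *Anxa3*, and 0 fell (edgeR, quasi-likelihood test with p-values adjusted by Benjamini and Hochberg over all genes, threshold 0.05). Over all genes 6.83% rose and 7.04% fell by the same rule. At an unadjusted p below 0.05 there were 4 members, all higher in HI, adding *Anxa2* and *Anxa4*. The log2 fold change was above 0 for all 8 members, against 53.3% of all genes tested, and its median was 1.06 for the members and 0.04 for all genes. In 3 members, *Anxa1*, *Anxa2* and *Anxa3*, every HI library lay above every control, which was so for 21.5% of all genes, and in 0 members every HI library lay below every control, as it did for 20.8% of all genes. In bulk tissue a change in the number of cells of a type and a change in RNA per cell cannot be told apart.

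*Anxa1*, the ligand of formyl peptide receptors whose transcription glucocorticoids are known to raise, stood at 3.94, 4.79 and 2.70 CPM in controls 1, 2 and 3 and at 13.4, 20.8 and 43.4 CPM in HI 1, 2 and 3. All HI libraries were above all controls, and within HI the third library was 3.23 times the first. Mean levels were 3.81 ± 1.05 CPM in controls and 25.9 ± 15.6 CPM in HI (SD, n = 3 each). The log2 fold change was 2.76 ± 0.48 (SE), or 6.79-fold (edgeR adjusted p = 0.0255).

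*Anxa3*, an annexin found in microglia among brain cells, was at 14.7, 15.1 and 20.5 CPM in the controls and at 59.9, 99.8 and 107.4 CPM in HI. It was the evenest of the 3 separated members within HI, where the third library was 1.79 times the first. Mean levels were 16.8 ± 3.25 and 89.0 ± 25.5 CPM, and the log2 fold change was 2.41 ± 0.26, or 5.31-fold. The edgeR adjusted p of 0.0196 was the lowest reached by any gene in the comparison, a value that 47 genes shared.

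*Anxa2*, which with S100a10 forms the complex that binds plasminogen and its activator, was at 9.69, 21.8 and 7.79 CPM in the controls and at 23.9, 63.3 and 124.9 CPM in HI. The groups did not overlap, but control 2 and HI 1 lay close together, and HI 3 was 5.23 times HI 1. Its log2 fold change of 2.43 was close to that of *Anxa3*, with an SE of 0.67 against 0.26, and missed the threshold (edgeR adjusted p = 0.0565). DESeq2 did call it (adjusted p = 7.3e-04), as did edgeR with scaling by total counts (adjusted p = 0.0428) or without HI 1 (adjusted p = 0.0216), and over 16 other settings its adjusted p ran from 7.3e-04 to 0.393.

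**Figure D1:**
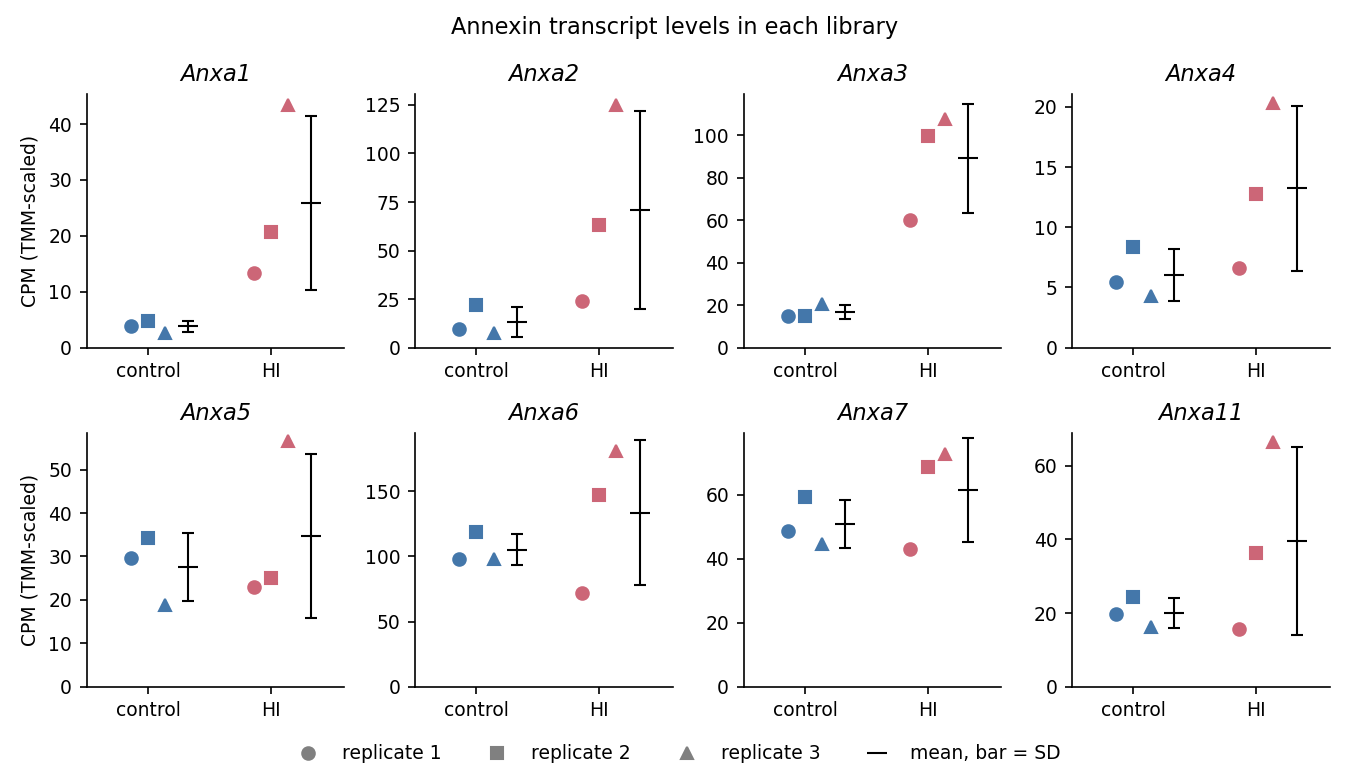
Level of each annexin in CPM (vertical axes from 0, TMM-scaled) in the control (blue) and HI (red) groups. Symbols mark the replicates and black bars the mean and SD of 3 libraries. *Anxa1*, *Anxa2* and *Anxa3* have every HI library above every control, and in the other 5 panels the groups overlap.

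The sequence ahead of a start site of these 3 genes was searched for 3 short motifs on both strands, since they were the members whose groups separated. The motifs were the AP-1 site TGANTCA, the STAT-type GAS site TTCNNNGAA and the GC box GGGCGG. Promoter sequences come from RefSeq on build GRCr8, which is not the build of the count table, and 7 of the 8 members had an entry. That table gives 1 start per gene, which is the outer end of the annotated gene for *Anxa2* and lies 81 bases inside it for *Anxa3* and 3007 bases inside it for *Anxa1*, so the *Anxa1* window is within the span of the gene. Shown are the 250 bases before that start, 5′ to 3′ on the strand of the gene, with matches in capitals.
Anxa1 (chr1:227303733-227303982, minus strand): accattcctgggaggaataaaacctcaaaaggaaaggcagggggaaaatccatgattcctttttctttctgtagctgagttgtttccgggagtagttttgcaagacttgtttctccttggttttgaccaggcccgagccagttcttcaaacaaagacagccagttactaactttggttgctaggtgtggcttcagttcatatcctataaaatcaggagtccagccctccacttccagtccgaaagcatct
Anxa2 (chr8:78986002-78986251, plus strand): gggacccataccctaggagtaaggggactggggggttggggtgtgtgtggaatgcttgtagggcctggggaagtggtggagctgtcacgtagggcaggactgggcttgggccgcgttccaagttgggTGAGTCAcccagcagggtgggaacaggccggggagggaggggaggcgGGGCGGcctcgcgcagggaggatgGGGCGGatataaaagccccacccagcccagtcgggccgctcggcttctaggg
Anxa3 (chr14:13085598-13085847, minus strand): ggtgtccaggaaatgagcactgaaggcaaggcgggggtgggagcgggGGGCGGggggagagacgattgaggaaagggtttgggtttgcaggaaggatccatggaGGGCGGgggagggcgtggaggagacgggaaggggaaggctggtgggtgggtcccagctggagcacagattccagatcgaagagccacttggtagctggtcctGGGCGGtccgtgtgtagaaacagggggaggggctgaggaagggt

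*Anxa2* held 1 AP-1 match, TGAGTCA, from 123 to 117 bases before the start, and the other 6 members with an entry held 0. Over the promoters of all genes tested 4.42% held an AP-1 match in this window. GC boxes numbered 4 in *Anxa11*, 3 in *Anxa3*, 2 in *Anxa2*, 1 each in *Anxa4* and *Anxa5* and 0 in *Anxa1* and *Anxa7*, 54.8% of tested promoters having at least 1. The start used lies 1860 bases inside the annotated gene for *Anxa7*, 239 for *Anxa5*, 107 for *Anxa11* and 21 for *Anxa4*. The *Anxa7* window, like that of *Anxa1*, is thus within the span of the gene. None of the 7 held a GAS match, which was found in 6.01% of tested promoters. The 3 motifs do not overlap one another in these windows, and a match is a string of letters, not a measured binding site.

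The other 5 members did not pass the test, and their groups overlapped. *Anxa4*, an annexin of epithelial cells, was at 5.45, 8.39 and 4.27 CPM in the controls and at 6.62, 12.8 and 20.3 CPM in HI. HI 1 lay below control 2, and HI 2 and HI 3 lay above all controls (log2 fold change 1.13 ± 0.45, edgeR adjusted p = 0.124).

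*Anxa11*, which has a long amino-terminal stretch and tethers RNA granules to lysosomes in axons, was at 19.6, 24.2 and 16.2 CPM in the controls and at 15.7, 36.3 and 66.4 CPM in HI. Here HI 1 was below every control and HI 3 was 4.23 times HI 1 (log2 fold change 0.98 ± 0.49, edgeR adjusted p = 0.193).

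*Anxa5*, which binds exposed phosphatidylserine, was at 29.5, 34.2 and 18.9 CPM in the controls and at 22.9, 24.9 and 56.5 CPM in HI. Only HI 3 lay outside the range of the controls (log2 fold change 0.34 ± 0.40, edgeR adjusted p = 0.575). *Anxa6*, the largest member because its core is duplicated, was at 98.1, 118.8 and 98.3 CPM in the controls and at 72.1, 147.2 and 181.2 CPM in HI. HI 1 was the lowest and HI 3 the highest of all 6 libraries (log2 fold change 0.35 ± 0.32, edgeR adjusted p = 0.465). *Anxa7*, known to bind sorcin, was at 48.6, 59.3 and 44.6 CPM in the controls and at 42.9, 68.7 and 72.8 CPM in HI. It showed the same spread around the controls (log2 fold change 0.27 ± 0.22, edgeR adjusted p = 0.408). For these 5 genes a p above the threshold does not show that the levels were equal.

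Within HI the members ordered the libraries alike, and among the controls most did. All 8 were lowest in HI 1 and highest in HI 3 among the HI libraries. The main axis of variation over all genes tested, 60.0% of the variance, placed the HI libraries in the same order (12.3, 43.3 and 77.1). The share of all genes with this order was not counted. Among the controls 7 members were highest in control 2, and *Anxa3* was highest in control 3. The lowest control was control 3 for 6 members and control 1 for 2, *Anxa3* and *Anxa6*. *Anxa2* had the widest spread among the controls, 0.85 above their mean in control 2 and 0.58 below it in control 3 on the log2 scale.

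Marker lists of other cell types differed between the same libraries. Of 7 choroid plexus markers all had reads in every library, 0 passed the test in either direction, and their summed level spanned 13.2 to 2117 CPM across controls and 180 to 14864 CPM across HI libraries. Control 2 was the highest control and HI 1 the lowest HI library in that sum, as in 7 members for the controls and in all 8 for HI. The 6 meningeal fibroblast markers, of which 0 passed, spanned 29.1 to 167 CPM across controls, control 2 again being highest. Across HI libraries they spanned 99.9 to 413 CPM, with HI 2 and not HI 1 lowest. Of 6 ependyma markers 2 rose and 0 fell. Their sum spanned 36.4 to 65.8 CPM across controls, control 1 being highest. It spanned 97.9 to 228 CPM across HI libraries, HI 2 being lowest.

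Markers of glia and vessels moved between the groups as well. Of 8 microglia markers 6 rose (sum 125 to 179 CPM in controls, 267 to 432 CPM in HI). Like *Anxa3* their sum was highest in control 3 among the controls, as were the sums of mural cell, astrocyte and oligodendrocyte markers. Of 7 reactive astrocyte markers tested 6 rose (229 to 268 CPM, then 1413 to 3858 CPM), with *Serpina3n*, the eighth, at 0 in the controls. Of 6 mural cell markers 4 rose (53.1 to 71.3 CPM, then 130 to 428 CPM), and of 6 endothelial markers 1 rose (139 to 189 CPM, then 154 to 307 CPM). In these 4 lists 0 markers fell, and the sums of all 4 were lowest in HI 1 and highest in HI 3 within HI, like the annexins. Of 7 neuron markers 4 fell and 0 rose (3967 to 5224 CPM, then 1303 to 2518 CPM). Oligodendrocyte markers also went down, 2 of 6 falling and 0 rising (527 to 811 CPM, then 341 to 427 CPM). Astrocyte markers other than the reactive ones numbered 6, of which 1 rose and 0 fell (888 to 1365 CPM, then 1465 to 2058 CPM). Their sum was lowest in HI 2 within HI, unlike the annexins. The 8 blood leukocyte markers summed to at most 0.76 CPM in a control and 1.64 CPM in an HI library, and *S100a8* and *Cd3e* were at 0 in every control. *S100a8* and *S100a9* had more reads in every HI library than in any control, at most 12 and 5, and the list holds neutrophil and lymphocyte but no monocyte markers. The part of any of these cell types in the annexin levels was not tested.

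**Figure D2:**
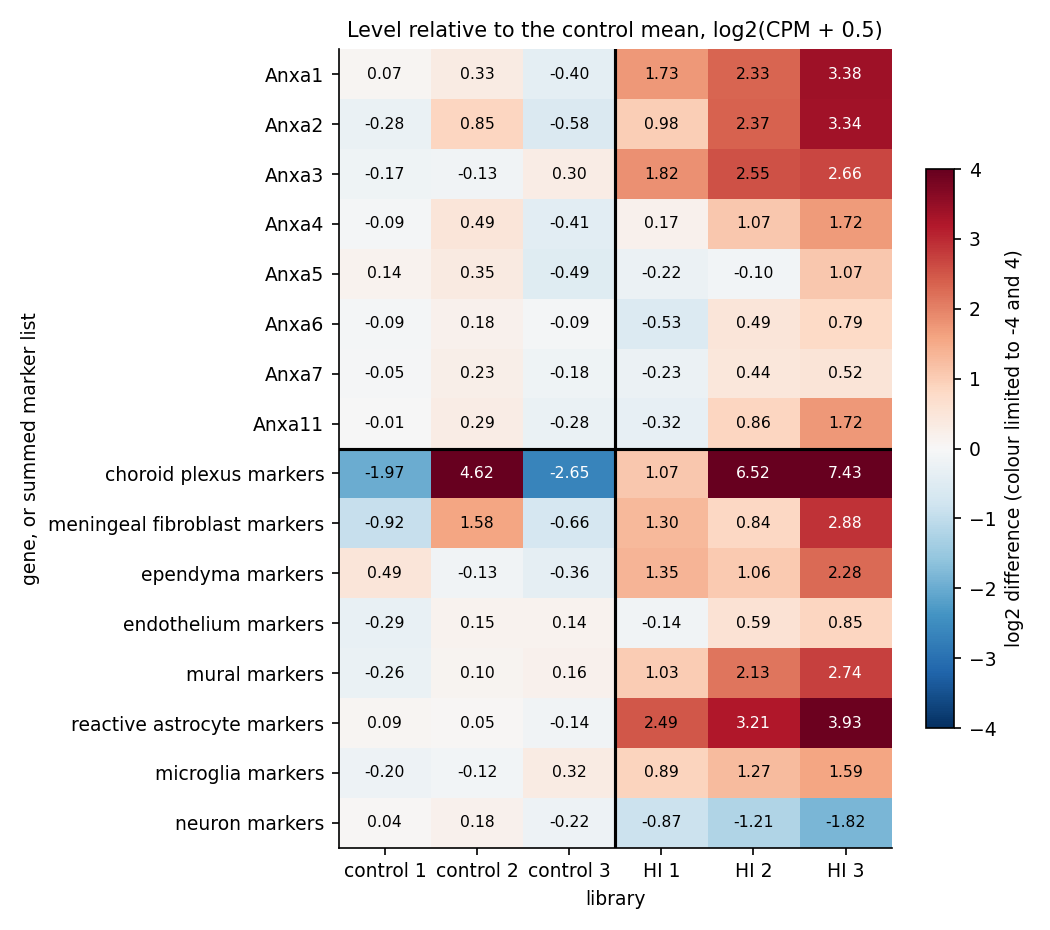
Difference of each library (columns) from the mean of the 3 controls in log2(CPM + 0.5), for the 8 annexins (upper rows) and for the summed markers of 8 cell types (lower rows). *Anxa1* lies between 1.73 and 3.38 and *Anxa3* between 1.82 and 2.66 in HI, while choroid plexus markers are at 4.62 in control 2 and at 1.07, 6.52 and 7.43 in HI 1, 2 and 3.

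The members were also compared within libraries poor and rich in choroid plexus reads, chosen after the data were seen. The content still differed within each set, with marker sums of 180 CPM in HI 1 against 21.4 and 13.2 CPM in controls 1 and 3, and of 7888 and 14864 CPM in HI 2 and HI 3 against 2117 CPM in control 2. Among the 3 libraries poor in these reads, HI 1 against the mean of controls 1 and 3, *Anxa1* was 4.05 times higher, *Anxa3* 3.40 times and *Anxa2* 2.73 times. *Anxa4* was at 1.36 times the controls, and *Anxa5*, *Anxa6*, *Anxa7* and *Anxa11* were at 0.945, 0.735, 0.921 and 0.878 of them. Thus 4 of 8 members were above 1, as were 50.01% of all genes tested. Among the 3 libraries rich in these reads, HI 2 and HI 3 against control 2, all 8 members were above 1, against 54.9% of all genes tested, from 1.19 times for *Anxa5* to 6.86 times for *Anxa3*. Each of these ratios has a lone library on 1 side, so its spread is not known.

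A split by Y-linked reads gave a like picture. Among libraries without them, HI 1 against controls 1 and 2, *Anxa3*, *Anxa1* and *Anxa2* were 4.02, 3.08 and 1.52 times higher and the other 5 were at or below 0.956 of the controls (3 of 8 above 1, against 51.2% of all genes). Among libraries with them, HI 2 and HI 3 against control 3, all 8 were above 1, against 51.6% of all genes, from 1.59 times for *Anxa7* to 12.1 times for *Anxa2*. Both splits put HI 1 apart from HI 2 and HI 3, so choroid plexus content, Y-linked reads and the level of HI 1 itself cannot be told apart.

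Profiles over the 6 libraries, each centred on its own control mean in log2(CPM + 0.5), were compared by their root-mean-square difference. *Anxa6* and *Anxa7* were the closest pair of members (0.17), followed by *Anxa4* and *Anxa11* (0.24), and *Anxa1* and *Anxa7* the farthest apart (1.62). *Anxa1* was closer to *Anxa2* (0.41) than to *Anxa3* (0.47), and *Anxa2* and *Anxa3* differed by 0.70. Among all tested genes with a mean of at least 5 CPM, those closest to *Anxa1* were *C7*, a complement component (0.17), *Ifi44*, an interferon-induced gene (0.19), and *RT1-S3*, a rat MHC class I gene (0.19). *C7* had entries that were not whole reads, and *RT1-S3* belongs to a family of similar genes, so both values are uncertain. Closest to *Anxa3* were *Ptpn7*, a phosphatase of blood-derived cells (0.13), *Myo1f*, a myosin of leukocytes and microglia (0.15), and *C1qb*, a chain of complement C1q (0.16). These distances describe 6 libraries that share a group difference and carry no test.

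The table holds 4 further annexins, and reads for these were few. *Anxa10* gave 8, 12 and 3 control reads and 2, 31 and 22 HI reads, and its log2 fold change, 1.01 ± 0.89, missed the threshold (edgeR adjusted p = 0.449). *Anxa8* had at most 6 reads in a control and at most 20 in an HI library, *Anxa13* at most 1 and 5, and *Anxa9* at most 2 and 3. The last 3 were too low to be tested. The receptors of Anxa1 were as scarce. *Fpr1* had 1 read in 1 control and 0 elsewhere, *Fpr2* at most 2 reads in a control and at most 3 in an HI library, and *Fpr3* 1 read in HI 2 alone. A difference in these receptors was not detectable at this depth, at which a count of 0 allows up to 0.182 to 0.227 CPM, counting error only.

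Partners and processes of the annexins were examined as lists of known genes. Over all genes tested 6.83% rose and 7.04% fell, and each list count is to be read beside these shares. In the S100 proteins that bind annexins 1 of 5 tested genes rose and 0 fell, with 2 higher and 0 lower at an unadjusted p below 0.05, and the median log2 fold change was 0.78. *S100a4*, a partner of Anxa2, was at 0.45, 0.52 and 0.45 CPM in the controls and at 1.54, 4.05 and 7.57 CPM in HI (log2 fold change 3.19 ± 0.64, edgeR adjusted p = 0.0310), from at most 7 reads in a control. By limma-voom 0 genes of this list were called and 1 had an unadjusted p below 0.05, and by DESeq2 2 rose.

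The S100 partners of single members are given next, named after their values were seen. *S100a10*, the partner of Anxa2, was at 44.7, 46.2 and 13.3 CPM in the controls and at 20.3, 38.0 and 44.8 CPM in HI. Its groups overlapped throughout, with a log2 fold change of -0.01 ± 0.50 (edgeR adjusted p = 0.986), and the sign of this value turned with the scaling (0.0826 by upper quartiles, 0.20 by total counts). Control 3 was the lowest control for both *S100a10* and *Anxa2*. *S100a11*, which binds the amino-terminal stretch of Anxa1, was at 11.5, 7.29 and 3.82 CPM in the controls and at 8.49, 19.1 and 34.8 CPM in HI (log2 fold change 1.46 ± 0.59, edgeR adjusted p = 0.126), and was called by DESeq2 (adjusted p = 0.0474) and without HI 1 (edgeR adjusted p = 0.0469). *S100a6*, which binds Anxa11, gave 4, 1 and 1 control reads and 8, 75 and 174 HI reads and was not tested, since only 2 libraries had enough reads.

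In plasmin generation 1 of 6 tested genes rose and 0 fell, against 6.83% and 7.04% of all genes. At an unadjusted p below 0.05 these were 2 and 0, and the median log2 fold change was 0.0939. *Plau*, the urokinase-type activator, was at 0.45, 0.81 and 0.37 CPM in the controls and at 3.28, 6.17 and 10.5 CPM in HI (log2 fold change 3.58 ± 0.56, edgeR adjusted p = 0.0226). Its groups did not overlap, as in 42.3% of all genes tested. No control had more than 11 reads, so the fold is imprecise. *Plat*, the tissue-type activator that binds the complex of Anxa2 and S100a10, was named after its values were seen. Its log2 fold change, 1.13 ± 0.32, missed the threshold (edgeR adjusted p = 0.0610). It was called by DESeq2 (adjusted p = 0.0065) and, by edgeR, with scaling by total counts (adjusted p = 0.0426) and without HI 1 or HI 3 (adjusted p = 0.0498 and 0.0497). In this list DESeq2 called 2 higher and 0 lower, and limma-voom 1 and 0.

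**Figure D3:**
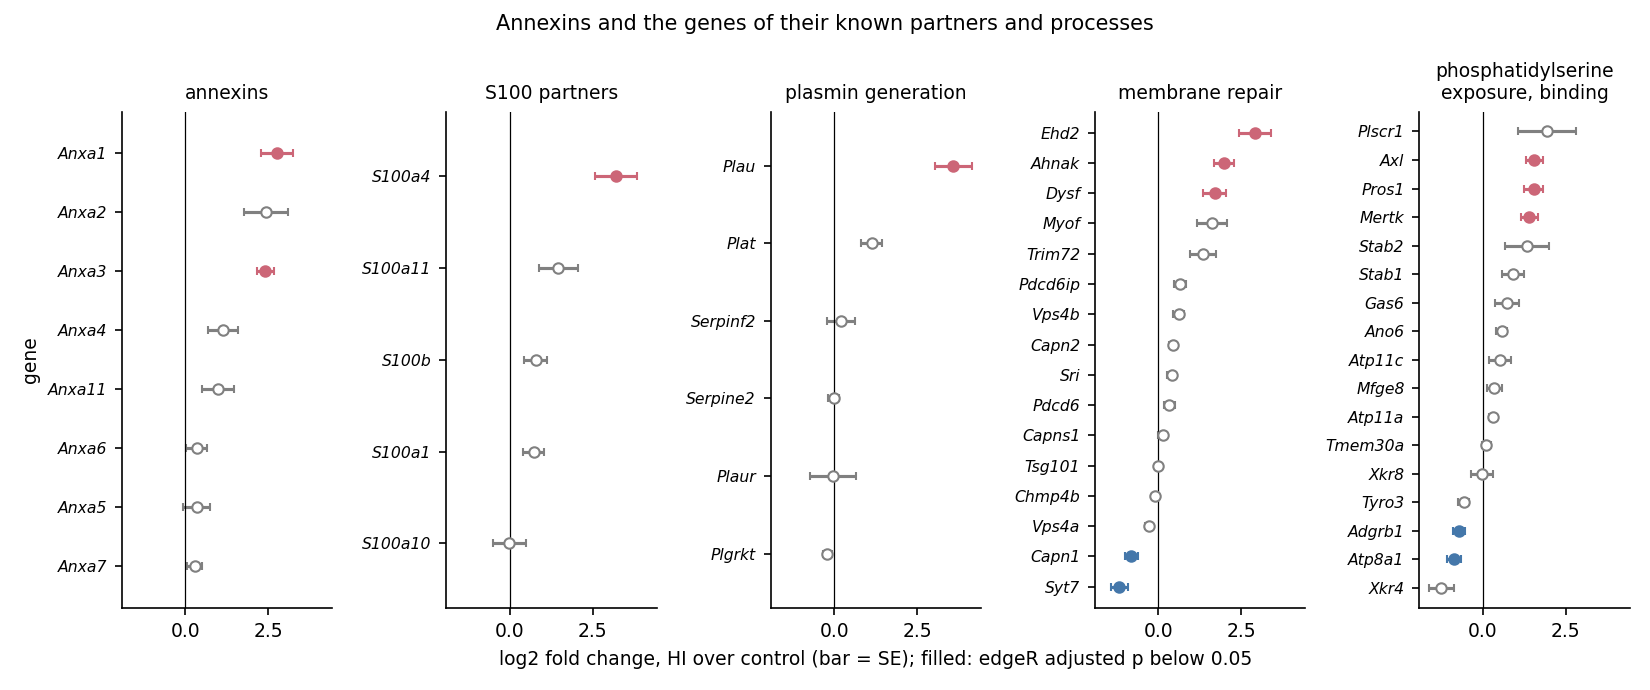
Log2 fold change of HI over control (horizontal axes) for the annexins and for tested genes of 4 lists of partners and processes, with bars for the SE. Filled symbols have an edgeR adjusted p below 0.05 (red higher, blue lower in HI), as do 2 of 8 annexins, both to the right of 0.

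Genes of plasma membrane repair moved in both directions. Of 16 tested 3 rose and 2 fell, against 6.83% and 7.04% of all genes. The median log2 fold change of the list was 0.41. *Ahnak*, a giant scaffold protein recruited by Anxa2 and S100a10, was at 22.0, 32.9 and 22.8 CPM in the controls and at 70.7, 95.1 and 140.9 CPM in HI (3.95-fold, edgeR adjusted p = 0.0219). *Ehd2*, a membrane-shaping ATPase of caveolae, was at 2.65, 3.09 and 4.27 CPM in the controls and at 10.3, 31.7 and 33.3 CPM in HI (7.51-fold, edgeR adjusted p = 0.0238). *Dysf*, or dysferlin, the calcium sensor that gathers annexins at membrane lesions, was at 7.80, 6.11 and 7.11 CPM in the controls and at 12.8, 32.2 and 23.3 CPM in HI (3.25-fold, edgeR adjusted p = 0.0313). All 3 were lowest in HI 1 among the HI libraries, as the annexins were. By limma-voom the calls of *Ehd2* and *Dysf* did not hold (adjusted p = 0.0621 and 0.0620). That of *Dysf* was also lost by edgeR with the replicate block (adjusted p = 0.0624). The *Ahnak* call held in both settings.

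The 2 genes of the list that fell were *Syt7* and *Capn1*. *Syt7*, a synaptotagmin of lysosome and vesicle fusion that neurons express strongly, was at 449, 453 and 441 CPM in the controls and at 249, 220 and 125 CPM in HI (edgeR adjusted p = 0.0337). *Capn1*, a calcium-activated protease named after its values were seen, had a log2 fold change of -0.81 ± 0.21 (edgeR adjusted p = 0.0485). Its call depended on the scaling and the tool, with adjusted p of 0.0662 by upper quartiles, 0.0784 by total counts and 0.0641 by limma-voom. DESeq2 called 7 higher and 2 lower in this list, and limma-voom 1 and 1.

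Among genes that expose or bind phosphatidylserine, the lipid that annexins recognise, 3 of 17 tested rose and 2 fell. Over all genes these shares were 6.83% and 7.04%. The median log2 fold change of the list was 0.52. *Axl* and *Mertk*, receptors for dying cells, and *Pros1*, a ligand that bridges Mertk to phosphatidylserine, rose 2.93-fold, 2.65-fold and 2.91-fold (edgeR adjusted p = 0.0235, 0.0270 and 0.0274). *Tyro3*, a receptor of the same family named after its values were seen, was lower in HI but was not called. Its log2 fold change was -0.57 ± 0.17 (edgeR adjusted p = 0.0640). *Pros1* was at 7.57, 8.76 and 9.21 CPM in the controls and at 16.1, 24.0 and 34.3 CPM in HI. *Atp8a1*, a flippase that keeps the lipid inside, was at 402, 361 and 359 CPM in the controls and at 271, 187 and 157 CPM in HI (edgeR adjusted p = 0.0427), and *Adgrb1*, a phosphatidylserine receptor of brain named after its values were seen, fell by 0.72 ± 0.18 on the log2 scale (edgeR adjusted p = 0.0480). The *Adgrb1* call was lost with scaling by upper quartiles (adjusted p = 0.0545) or total counts (adjusted p = 0.0710), by limma-voom (adjusted p = 0.0569) and with no filter (adjusted p = 0.0512), and that of *Atp8a1* by total counts (adjusted p = 0.0501). The groups of the 5 called genes, which were named because they were called, and of *Tyro3* did not overlap, as in 42.3% of all genes tested. DESeq2 called 4 higher and 4 lower in this list, and limma-voom 3 and 1.

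The calls changed when some single libraries were left out, for the annexins and over all genes. By edgeR 0 members were called without control 1, without control 2 or without HI 2, where 3, 4 and 3 had an unadjusted p below 0.05, and over all genes those fits called 0, 1 and 0. Without HI 1 there were 6 called members, all but *Anxa5* and *Anxa7*, and calls over all genes went from 2074 to 3689. Without control 3 or HI 3 *Anxa1* and *Anxa3* were called, among 1694 and 644 genes. Over the 6 fits the log2 fold change of *Anxa3* stayed between 2.25 and 2.62, that of *Anxa1* between 2.17 and 3.07 and that of *Anxa2* between 1.73 and 2.98. *Anxa5* turned to -0.20 without HI 3. By limma-voom *Anxa1* did not pass (adjusted p = 0.0555) and *Anxa3* did (adjusted p = 0.0263). Of 16 other settings 12 called *Anxa3*, 10 *Anxa1*, 3 *Anxa2*, 1 each *Anxa4*, *Anxa6* and *Anxa11* and 0 *Anxa5* or *Anxa7*.

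**Figure D4:**
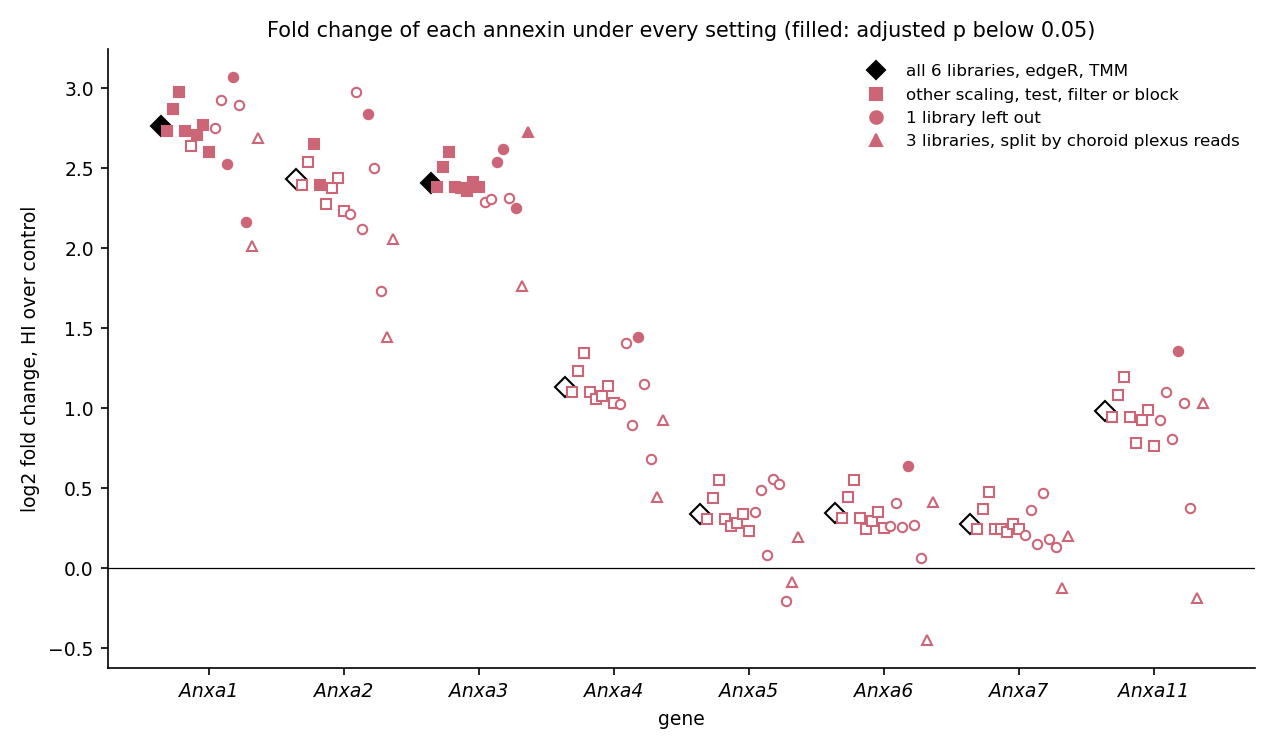
Log2 fold change of HI over control (vertical axis) for each annexin under the reported fit (black diamond) and 16 other settings (red), filled where the adjusted p was below 0.05. *Anxa1*, *Anxa2* and *Anxa3* stay at 1.45 or above throughout, and *Anxa5*, *Anxa6*, *Anxa7* and *Anxa11* fall below 0 in at least 1 setting.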

How the data were processed

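The 6 libraries of rat brain RNA were made from TRIzol extracts and, per the labels' protocols, the SMARTER mRNA-Seq kit. HISAT2 2.1.0, SAMtools 1.10, StringTie 2.2.1 and assembly Rnor 6.0 were used per the submitters' processing notes. Which counter and annotation were used, and whether strand was used, is not stated in those sources. The authors deposited estimated counts per gene with no scaling, which were rounded to whole numbers. All entries of the 8 annexins were whole to within 1e-09.

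Genes were filtered with filterByExpr (minimum count 10), scaled by TMM and compared between groups with glmQLFTest (edgeR 4.0.16 in R 4.3.3), a two-sided quasi-likelihood test without covariates, with Benjamini-Hochberg adjustment over 14959 genes. The SE was derived from the F statistic. The test was checked on simulated data. Alternatives were 3 other scalings, DESeq2 1.42.0, limma-voom (limma 3.58.1), 2 other filters, a replicate block and leaving out each library. A pair of 3-library fits was added after the data were seen. The members, lists and tests were chosen with earlier results of these data known. A gene of the plasmin list is not reported here and was left out of the counts of that list. Named genes are the members, the other annexins, in each list the called genes with the smallest p, up to 4, and the 3 closest profiles of each called member. Receptors, single partners and other genes beyond that rule were named with their values known.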

Additional observations from a re-analysis of the deposited data

How the results depend on the processing

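The count of called annexins, 2 in the reported fit, was 1 by limma-voom, 0 to 6 without single libraries, 0 among the 3 libraries poor in choroid plexus reads (3 members at an unadjusted p below 0.05) and 1 among the 3 rich in them. Over all genes, 2074 calls became 4200 by DESeq2, 1371 by limma-voom, 0 to 3689 without single libraries, and 0 and 1032 in those 3-library fits, where 1552 and 4478 genes had an unadjusted p below 0.05. The 15 called genes of the partner and process lists became 25, 8, 0 to 25, 0 and 6 in the same order. Annexins whose groups did not overlap, 3 in all libraries, numbered 3 to 7 without single libraries. Without HI 1 they were 7, against 32.5% of all genes with HI above and 28.1% with HI below the controls, and without the other libraries 3 or 4, against 24.2% to 29.2% above and 23.2% to 27.5% below. The cause of these changes was not tested. Fits that leave 1 library in a group assume that it varies like the other group. Scaling by upper quartiles and by total counts moved the all-gene median up by 0.10 and 0.19 (log2), and higher calls made up 64.3% and 74.7% of all calls, against 49.2% with TMM, and every member stayed above 0.

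Directions turned for *Anxa5* without HI 3 (-0.20, against 0.56 without HI 1) and, in the 3 libraries poor in choroid plexus reads, for *Anxa5* (-0.0830), *Anxa6* (-0.45), *Anxa7* (-0.12) and *Anxa11* (-0.19). *S100a10*, near 0, turned to 0.0826 by upper quartiles, 0.20 by total counts, 0.12 by limma-voom, 0.0740 with the replicate block, and up to 0.25 without HI 1, its lowest value without single libraries being -0.44. Whether the replicate numbers pair the samples is not known. Same-numbered libraries correlated at 0.23, 0.08 and -0.16 in their deviations from the group means. Control 1 correlated best with HI 1, but control 2 with HI 3 (0.33) and control 3 with HI 1 (0.14). With 3 libraries per group that differ in tissue content, these values cannot exclude a pairing. With the replicate block 1723 genes were called, and of the annexins *Anxa1* and *Anxa3* were called.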

Other observations

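Glucocorticoids are a known inducer of *Anxa1*, and a list of 9 genes of the glucocorticoid response was examined beside it. Of these 3 rose and 0 fell, against 6.83% and 7.04% of all genes, and the median log2 fold change was 0.03. At an unadjusted p below 0.05 by edgeR 3 were higher and 2 lower. DESeq2 called 3 higher and 1 lower, and limma-voom 1 and 0. *Pdk4*, a kinase that restrains pyruvate oxidation, was at 0.76, 0.74 and 0.82 CPM in controls 1, 2 and 3 and at 3.28, 3.21 and 5.82 CPM in HI 1, 2 and 3. *Sult1a1*, a sulfotransferase, rose 6.57-fold and *Dusp1*, a phosphatase of MAP kinases, 1.92-fold (edgeR adjusted p = 0.0354 and 0.0427). Neither call held by limma-voom (adjusted p = 0.0706 and 0.0570) or by edgeR with the replicate block (adjusted p = 0.0602 and 0.0923). That of *Dusp1* was also lost with no filter (adjusted p = 0.0505). *Tsc22d3* and *Fkbp5*, chosen with their values known, gave log2 fold changes of 0.03 ± 0.13 and -0.14 ± 0.22, and *Nr3c1*, the receptor itself, 0.12 ± 0.12, all with overlapping groups. The 2 genes lower at an unadjusted p below 0.05 were *Zbtb16* and *Per1*. Their log2 fold changes were -1.11 ± 0.36 and -0.30 ± 0.12 (edgeR adjusted p = 0.0808 and 0.119).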
